A study of Homo sapiens with 6 samples.

Results

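HNRNPM, which encodes heterogeneous nuclear ribonucleoprotein M, was 1 gene of the 403 in the deposited comparison of ginkgolic acid with vehicle, and it was lower with ginkgolic acid. It was selected on its measured values in this same comparison, so its levels are given as a description and no test of its own was made. RNA-seq was made from HCCLM3, an established human hepatocellular carcinoma cell line labelled wild type. Cells received 10 µM ginkgolic acid, a salicylic acid with a long alkyl chain found in ginkgo, or DMSO, both for 24 h, with 3 libraries in each group. The labels do not say whether the replicates were separate cultures, so the spread between libraries may be technical.

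HNRNPM belongs to the hnRNPs, nuclear proteins that coat newly made RNA and take part in choosing its splice sites. It holds RNA recognition motifs that bind GU-rich RNA and a repeat region rich in methionine and arginine. It can repress or promote the inclusion of an exon, works in one assembly with RBFOX proteins, and opposes the epithelial regulator ESRP1 on exons that change in epithelial-mesenchymal transition. A form at the surface of liver macrophages was described as a receptor for carcinoembryonic antigen, which is why the gene also carries the name CEAR.

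The gene (ENSG00000099783) lies on the plus strand of chromosome 19, from 8444767 to 8489114 on GRCh38, where GENCODE release 29 gives it 17 transcripts. Of these 11 are annotated as protein-coding, 3 as retained-intron transcripts, 2 as processed transcripts and 1 as a target of nonsense-mediated decay. The deposited gene length of 5614 bases equalled the union of their exons. Each library therefore had 1 value for all isoforms together, and neither isoforms nor the splicing of other genes were measured. The gene AC136469.2 overlaps the 5′ end on the opposite strand (8444570 to 8445597) and covers 345 of the exonic bases, or 6.15%. The sources used here do not say whether reads were counted by strand. The processed pseudogenes HNRNPMP1 and HNRNPMP2, copies of the spliced transcript at other positions, were outside the 403 genes, and how reads shared with them were treated is not stated either.

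A stretch near the start of HNRNPM is shown because it holds a short motif. The annotations place the start differently: the RefSeq start (8444975, GRCh38.p14) lies 208 bases inside the gene as GENCODE gives it. The RefSeq window ran from 250 bases before to 50 bases after the RefSeq start, had 70.7% G or C against a median of 58.3% over 27305 promoters of the same length, and held 39 CpG pairs against a median of 14. The E-box CACGTG, which reads the same on both strands and is bound by basic helix-loop-helix factors such as those of the MYC family, occurred 1 time in it and in 7.43% of all windows. It was looked for after the sequence had been seen. Of the 10 genes named by rule here that had a RefSeq window, HNRNPM, CEACAM5 and INSIG1 held it and the other 7 did not, RBPMS2, ALB, TSPAN8, LAMB3, ANXA10, KYNU and ODC1. CEACAM5, which encodes carcinoembryonic antigen, is printed beside HNRNPM. In the 30 bases below, both on the plus strand of chromosome 19, capitals mark the E-box, which lies 42 to 37 bases before the RefSeq start in HNRNPM (chr19:8444921-8444950) and 46 to 41 bases before it in CEACAM5 (chr19:41708568-41708597). By the GENCODE start the motif of HNRNPM begins 166 bases inside the gene, while that of CEACAM5 begins at -5, before the start. The near-equal distances thus hold for the RefSeq starts only. INSIG1, which is not printed, held the E-box 55 to 50 bases before its RefSeq start.
HNRNPM: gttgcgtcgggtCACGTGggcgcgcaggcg
CEACAM5: acacccatgaccCACGTGatgctgagaagt
The GC box GGGCGG and the TATA box TATAAA, searched on both strands, were found 0 times each in the HNRNPM window, and they occurred in 44.6% and 12.0% of all windows. A match in so short a window describes letters only.

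With DMSO, HNRNPM had 4429, 4723 and 4370 normalised read counts in replicates 1, 2 and 3. With ginkgolic acid it had 2123, 2341 and 2119. The unit is the authors' value per gene and library, which behaves as a read count divided by a size factor of the library. Replicate 2 was the highest in both groups, and the lowest DMSO library lay 1.87-fold above the highest ginkgolic acid library. There was no overlap between treated and vehicle libraries, as in 98.3% of the 403 genes, which had been chosen for their difference. The means were 4508 ± 189 with DMSO and 2195 ± 127 with ginkgolic acid (SD, n = 3 each), so the treated level was 48.7% of the vehicle level. The difference was -1.04 on the log2(normalised read count + 1) scale, with a standard error of 0.06 from a limma fit over all 403 genes. In bulk RNA, less HNRNPM RNA in every cell and fewer cells that express it cannot be told apart.

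**Figure D1:**
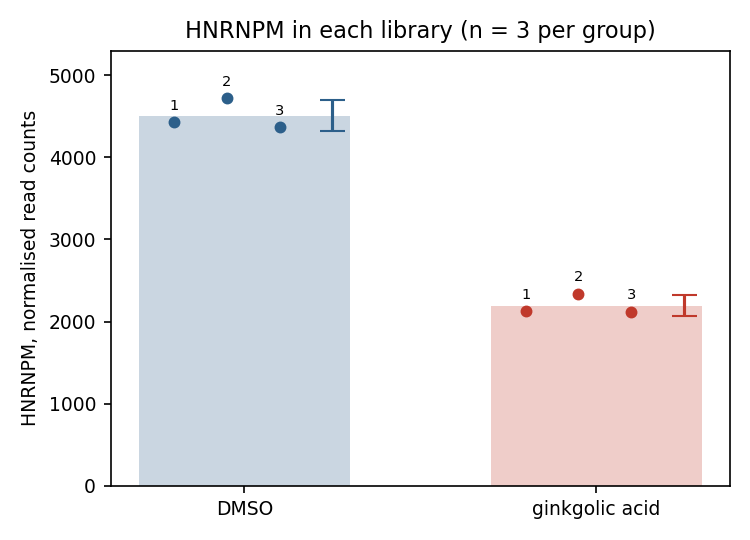
HNRNPM in each library: points are normalised read counts of replicates 1 to 3, bars are group means from 0, and whiskers are 1 SD (n = 3). The 3 DMSO libraries sit between 4370 and 4723 and the 3 ginkgolic acid libraries between 2119 and 2341.

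Read numbers are not given in the table and were inferred: all values of a library were whole multiples of 1 step, and 1 step was taken as 1 read. On that reading the DMSO values rested on 4425, 4955 and 4378 reads and the ginkgolic acid values on 2003, 2156 and 2415 reads, and counting error was small beside the difference. Exact 95% Poisson intervals of these inferred reads cover counting error only. They reached down to 4242 normalised read counts in the lowest DMSO library and up to 2442 in the highest ginkgolic acid library. HNRNPM had been selected on these same values, so the gap between the intervals is no separate evidence of its difference. A check on low values did not accept the inferred reads as counts, so the intervals hold only on the reading above. The spread between libraries was wider than counting alone: the coefficient of variation was 4.19% with DMSO, where counting error was 1.42% to 1.51%, and 5.80% with ginkgolic acid, where it was 2.03% to 2.23%. Over the 30 genes that averaged 500 or more normalised read counts, the median coefficient of variation was 5.59% with DMSO and 5.71% with ginkgolic acid, so HNRNPM varied about as much as other well-counted genes.

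HNRNPM combined a high level with a modest fold. In the authors' deposited table its log2 fold change was -1.04, with a p-value of 6.69e-75 and an adjusted p of 9.79e-72. Lower genes made up 37.2% of the table and higher genes 62.8%, in the authors' values and in the limma fit alike. By p-value HNRNPM stood in place 7 of all 403 genes and first among the 150 lower genes. These places are a description, since the table and the gene were selected on this same comparison. By fold it stood near the edge of the selection: every gene of the table had an absolute log2 fold change above 1 there, HNRNPM passed that limit by 0.04, and only 13 of the lower genes had a smaller fall. Among the lower genes the one closest to the limit, EXOC3-AS1, was at -1.01 in the authors' deposited table, and ARMC6 (-1.03) and CLDN10-AS1 (-1.04) lay on either side of HNRNPM. Genes with a smaller change than the limit were not analysed here. The median was -1.30 for the lower genes and 1.34 for the higher genes in the authors' deposited table.

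In normalised read counts the loss was larger than that of any other lower gene of the table, -2313 from DMSO to ginkgolic acid. Counts also grow with gene length. Per kilobase of the deposited length ANXA10 lost more, going from 2336 to 1091 against 803 to 391 for HNRNPM. TSPAN8 (869 to 421) and FOSL1 (839 to 412) also lost more on that scale, by margins small enough to depend on the lengths used. HNRNPM took 6.48% to 6.88% of the table's summed counts in the DMSO libraries and 2.45% to 2.62% in the ginkgolic acid libraries. That sum was itself higher with ginkgolic acid (83798 to 89376, against 67069 to 68692 with DMSO). The share therefore fell by more than the counts of HNRNPM did. Its mean over 6 libraries, 3351, was 80.4 times the median of the lower genes (41.7). Among the 19 genes that averaged 1000 or more, 7 were lower, and their log2 fold changes in the authors' deposited table lay between -1.30 and -1.03. These 7 were HNRNPM, ANXA10, KYNU, TSPAN8, AL365181.3, FOSL1 and MMP1.

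Genes of different length were ranked by normalised read counts per kilobase of the deposited length. On that scale HNRNPM had a mean of 597 over the 6 libraries, place 8 of 403, where the median gene had 15.8. Its level was 803 per kilobase with DMSO (place 5) and 391 with ginkgolic acid (place 14). With DMSO 4 genes lay above it: DDIT4, an inhibitor of mTORC1, the annexin ANXA10, the tetraspanin TSPAN8 and the AP-1 subunit FOSL1. All 4 were above it with ginkgolic acid too, beside 9 others, each of them a gene that was higher with ginkgolic acid. All these places depend on the deposited lengths, and that of HNRNPM takes in the exons of all its transcripts.

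The nearest genes in that order over 6 libraries were INSIG1 (681 per kilobase), TSPAN8 (645) and FOSL1 (626) above HNRNPM, and LAMB3 (563), MMP1 (531) and CYP1B1 (452) below it. INSIG1, which holds SREBP precursors in the endoplasmic reticulum, LAMB3, the laminin beta-3 chain, and the monooxygenase CYP1B1 were higher with ginkgolic acid, while TSPAN8, FOSL1 and the collagenase MMP1 were lower. The order among genes so close depended on the treatment, since genes with opposite changes changed places. INSIG1, for one, had 1634 ± 46.4 normalised read counts with DMSO and 3341 ± 134 with ginkgolic acid (SD, n = 3 each), and passed HNRNPM per kilobase with the treatment, going from 448 to 915.

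**Figure D2:**
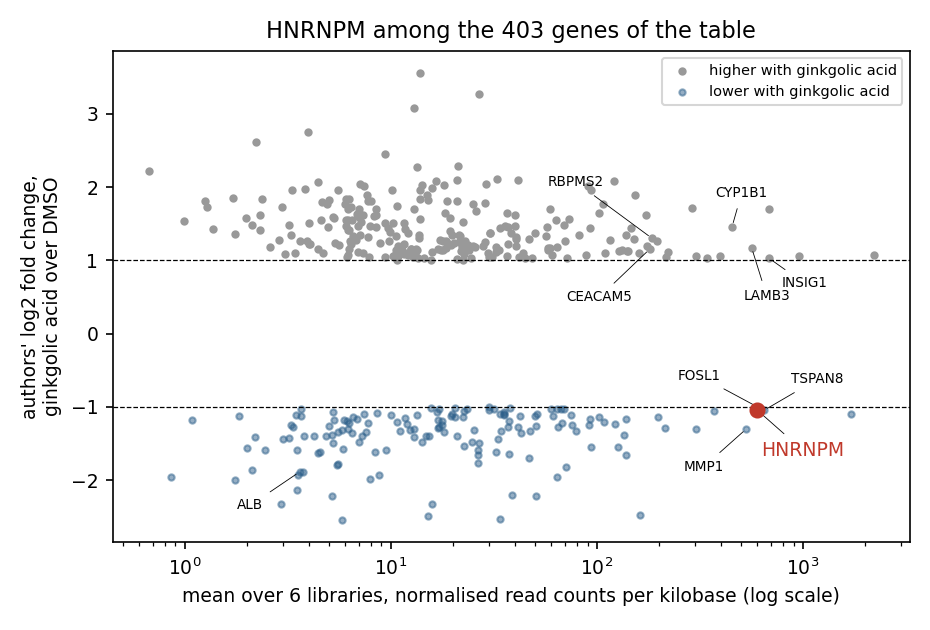
Each point is 1 of the 403 genes, with its mean level over 6 libraries in normalised read counts per kilobase (horizontal, log scale) against the authors' log2 fold change of ginkgolic acid over DMSO (vertical). Dashed lines mark log2 fold changes of 1 and -1, and HNRNPM (red) sits far to the right at 597 per kilobase and just past the lower line at -1.04.

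HNRNPM was the only gene of its family among the 403. GENCODE release 29 names 27 protein-coding HNRNP genes, and the other 26 were not analysed here, nor was any of 123 pseudogenes with such a name. A list of 43 HNRNP genes and relatives, which adds the PTBP and PCBP groups and its relative MYEF2, again gave HNRNPM alone. Of the 11 genes of the assembly that holds HNRNPM and RBFOX proteins, HNRNPM was the sole member found. No gene was found from the 18 SR proteins, which often act on exons against hnRNPs, the 74 spliceosome core genes, the 16 kinases that phosphorylate splicing factors, or the 33 genes of 3′ end processing and export. Over these 7 lists, 2 of 237 distinct genes were in the table (0.844%), 1 lower and 1 higher. The authors' adjusted p-values imply that 16104 genes were tested, of which the 403 are 2.5%. How many of the listed genes were tested is not known, and a gene outside the table may still have changed by less than the limit.

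The higher gene was RBPMS2, an RNA-binding protein of smooth muscle cells and 1 of 46 other splicing regulators listed. It had 187, 223 and 262 normalised read counts with DMSO and 482, 548 and 625 with ginkgolic acid in replicates 1 to 3. The lowest treated library was above the highest vehicle library, and groups were likewise apart in 98.3% of the 403 selected genes. RBPMS2 rose 2.46-fold, from 223.9 ± 37.2 to 551.8 ± 71.4 (SD, n = 3 each), with an adjusted p of 3.47e-20 in the authors' deposited table.

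Of the 12 genes of the carcinoembryonic antigen family, CEACAM5 was in the table, and it went the opposite way to HNRNPM. The table holds 2.5% of the tested genes, and 62.8% of its genes were higher, so a rise was the more common direction. Its values were 397, 381 and 344 normalised read counts with DMSO and 772, 930 and 798 with ginkgolic acid. Every treated library was higher than every vehicle library, again a trait of 98.3% of the table in either direction. CEACAM5, a cell surface glycoprotein (chromosome 19, 41708585 to 41729798, plus strand), rose 2.23-fold, from 374.4 ± 27.2 to 833.0 ± 84.7 (SD, n = 3 each), with an adjusted p of 2.54e-27 in the authors' deposited table. The gene AC243967.1 overlaps it on the same strand, so some of its reads are uncertain. Whether HNRNPM and CEACAM5 are linked in these cells was not tested.

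None of the 27 epithelial-mesenchymal markers was in the table, CD44, FGFR2 and CDH1 among those not analysed here. The table holds 2.5% of the tested genes, so lists this short would often give few or none of its genes. Of the 10 hepatocyte markers only ALB (albumin) was, at a very low level that fell further, with 16.0, 15.3 and 26.0 normalised read counts with DMSO and 7.42, 7.60 and 0.878 with ginkgolic acid. The ginkgolic acid values rest on 7, 7 and 1 inferred reads, so the size of that fall is uncertain. Markers of fibroblasts, leukocytes and endothelium gave 0 genes in the table, which leaves their levels unknown. The liver origin of the line could thus be checked by 1 gene alone, and it ranked 365 of 403 per kilobase.

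**Figure D3:**
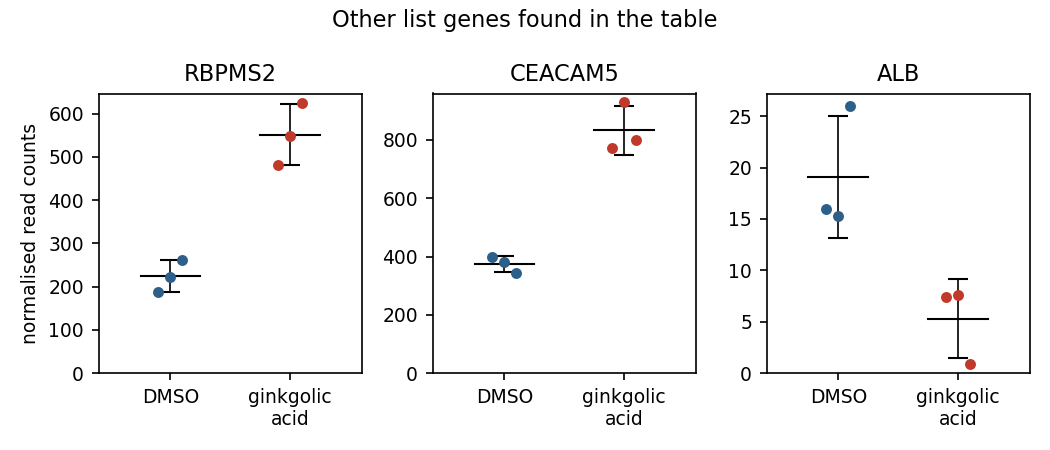
Normalised read counts of RBPMS2, CEACAM5 and ALB, the genes of the lists other than HNRNPM that were in the table, with points for the 3 libraries of each group, lines for the mean and whiskers for 1 SD. RBPMS2 and CEACAM5 were higher with ginkgolic acid and ALB was lower. The groups did not overlap in any of them, as in 98.3% of the 403 selected genes.

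The genes most like HNRNPM across the 6 libraries were sought among the other 29 genes averaging 500 or more normalised read counts, 10 of them lower with ginkgolic acid. Likeness was the root-mean-square difference of log2 values after each gene was centred on its own mean. All genes compared had been chosen for a difference between the same groups, so lower genes are alike in part by selection. FOSL1, a subunit of the transcription factor AP-1, was closest at 0.026, against a median of 0.143 over the 10 lower genes. AL365181.3, an antisense transcript, followed at 0.085, then ANXA10 at 0.115, KYNU at 0.117 and ODC1 at 0.142. KYNU is kynureninase, an enzyme of tryptophan breakdown, and ODC1 is the first enzyme of polyamine synthesis. DUSP6, the next gene, was at 0.143, so the fifth place was narrowly decided.

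FOSL1 had 1534, 1678 and 1540 normalised read counts with DMSO and 766, 806 and 763 with ginkgolic acid. As in HNRNPM, replicate 2 was the highest library of each group. The ratio of HNRNPM to FOSL1 counts, which does not depend on how libraries are scaled, stayed between 2.77 and 2.91 in all 6 libraries. FOSL1 was picked for likeness over these same 6 libraries, so neither the shared order nor the steady ratio is a separate result. The means of that ratio were 2.85 with DMSO and 2.82 with ginkgolic acid. Against ODC1 the same ratio went from 3.53 with DMSO to 4.23 with ginkgolic acid, so ODC1 fell by more than HNRNPM. Against ANXA10 it was 1.07 and 1.12, with a range over the libraries from 0.970 to 1.22. AL365181.3 lies opposite BCAN, and without a stated strand setting its reads may come from either gene.

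**Figure D4:**
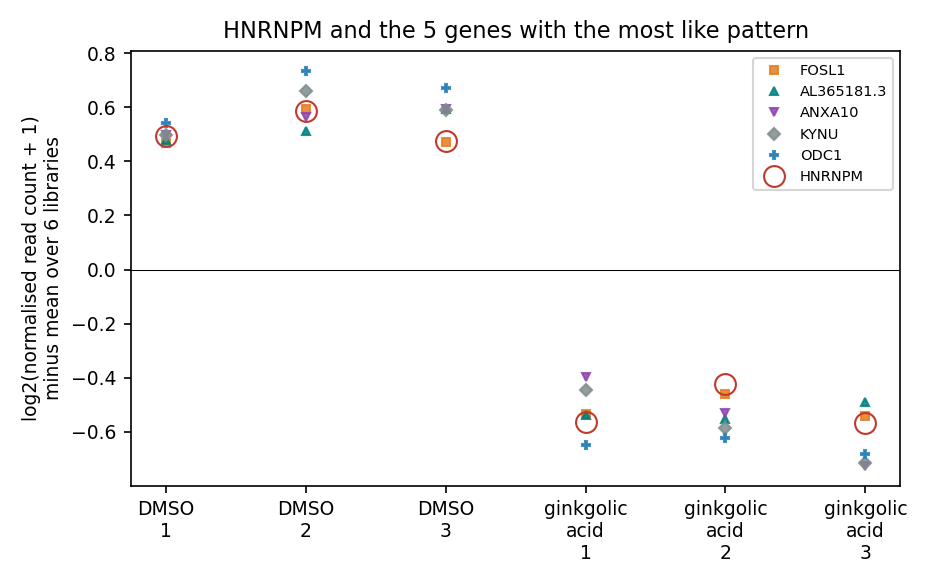
HNRNPM (open circles) and the 5 genes with the most like pattern, as log2(normalised read count + 1) minus the gene's mean over 6 libraries, in each library. FOSL1 lies inside the HNRNPM circle in every library, while ANXA10, KYNU and ODC1 depart from it in several.

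Genes of the table near HNRNPM on chromosome 19 were also listed. The nearest genes of the table were TINCR, 2866 kb towards the short-arm end, and AC011472.1, 2715 kb in the other direction, and both were higher with ginkgolic acid. GENCODE release 29 places 291 genes between them, 169 of them protein-coding, and these include genes that were not tested. HNRNPM is the only one of them in the table by construction, since the stretch ends at its nearest genes of the table. Across the whole chromosome the table held 33 genes, 25 higher (75.8%) and 8 lower (24.2%), against 62.8% and 37.2% of the whole table. TINCR, a transcript of epidermal differentiation, had 16.0, 20.0 and 20.0 normalised read counts with DMSO and 33.9, 65.2 and 55.3 with ginkgolic acid. AC011472.1 had 11.0, 11.4 and 9.98 against 17.0, 33.7 and 38.6. Both were thus far below HNRNPM in level, and both overlap another annotated gene on the same strand.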

How the data were processed

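Per the submitters' processing notes, the tools were DESeq2 1.20.0, featureCounts 1.5.0-p3, HISAT2 2.0.5, fastp and CASAVA 1.8, with hg38, and no settings are named. The authors deposited a table of 403 genes with a signal per library, log2 fold changes, p-values and adjusted p-values, per the file headers. All signal values (100%) were whole multiples of 1 step per library within 1e-06, which, with 1 step taken as 1 read, gave size factors of 0.921 to 1.139 and 67006 to 98627 inferred reads over these genes. They are called normalised read counts. Total depth is unknown. The table headed FPKM held the same values within 4.6e-08 and no FPKM. All 403 identifiers and positions equalled those of GENCODE release 29.

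Values as log2(normalised read count + 1) were fitted with limma 3.58.1 (R 4.3.3, intensity trend), over genes with a mean of at least 1, which removed 0. The fit was tested on simulated data. Every gene had been selected by the authors on these libraries, so calls (253 higher, 150 lower at an adjusted p under 0.05, Benjamini-Hochberg) are not independent evidence. HNRNPM, the gene lists and the rules were chosen with earlier results of these data known. The named genes were HNRNPM, up to 4 genes per list by the authors' fold change, 3 neighbours on each side in level per kilobase, the 5 most like patterns at a mean of at least 500, and the nearest gene on each side. Others are named to complete a count or a threshold. No library repeated another within sampling noise (chi-square of inferred reads, largest p = 2.49e-28), so all 6 were kept. With 3 against 3 libraries an exact permutation test cannot go below p = 0.1, so none was run. Count models were planned but not run, since a check on the lowest values of each library did not accept the inferred reads as counts: libraries had no gene at 1 step, too few low values, or a step close to 1. RefSeq promoters were matched for 206 of the 403 genes by symbol. Other steps used matplotlib 3.10.9, scipy 1.17.1, pandas 2.3.3, numpy 2.4.6 and Python 3.11.15.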

Additional observations from a re-analysis of the deposited data

How the results depend on the processing

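The log2 difference of HNRNPM (-1.04) kept its direction under all 14 alternatives and moved by less than the spread between libraries (0.07) in 13. The filters, the fit without intensity trend and the replicate block cannot change this estimate. HNRNPM was also selected on these libraries, so its direction was largely fixed in advance and the 13 say little about stability. The alternative that moved the difference further was median-of-ratios scaling over the selected genes, which gave -1.94. By its construction it centres libraries on changed genes and shifted the median of all genes by -0.89, and it left 61 genes called higher beside 150 lower, against 253 and 150. Relative to that median HNRNPM was at -2.14 with the authors' scaling and at -2.16 with the other. Rescaling shifts all genes nearly alike, so this likeness was fixed in advance and is no sign of stability. A pseudocount of 10 also moved the median of all genes, by -0.24. With 1 library left out at a time the range was -1.09 to -1.01 for HNRNPM, and 250 to 253 higher and 148 to 150 lower genes. The place of HNRNPM per kilobase (8) was 14 in ginkgolic acid libraries alone and 3 without division by length, and 6 to 9 when a library was left out. The labels do not say that shared replicate numbers mark pairs, so they were not taken as such. Same-numbered libraries' deviations correlated at -0.03, 0.00 and -0.07 across genes. Many of these genes had low counts (median 39.5), so this cannot exclude a pairing. With the replicate block the difference was -1.04 (SE 0.05) and the counts of calls were again 253 and 150. The standard error was larger without the intensity trend (0.13) and on unscaled reads (0.11) than in the main fit (0.06). Filters removed few or 0 genes, and depth limits ALB, TINCR and AC011472.1, not HNRNPM. Since the genes were selected on these libraries, stable calls were largely fixed in advance. The count-model alternatives were not run.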

Other observations

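The E-box CACGTG found in the RefSeq window of HNRNPM was in 6 of 76 lower genes (7.89%) and 14 of 130 higher genes (10.8%) with a RefSeq promoter, against 7.43% of all promoters. The GC box GGGCGG, which the HNRNPM window lacked, was in 42.1% of lower and 60.8% of higher genes, against 44.6% of all. No test was made of these shares. INSIG1, higher with ginkgolic acid and in place 5 by level per kilobase where HNRNPM was in place 8, held the E-box as well. ODC1, lower and the last of the 5 genes named for likeness, held it 0 times but the GC box 6 times.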
